A study of Mus musculus with 3 samples.

Results

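Interferon-stimulated genes (ISGs) are the genes whose transcription cells raise when type I, type II or type III interferon reaches their receptors. A list of 49 such genes was followed here, and 47 of the 49 were found by name among the 32285 genes in the feature lists. Mx1 and Mx2, which encode antiviral GTPases, were not in the feature lists and are not analysed here. The members were described across the cell classes of full-thickness mouse dorsal skin and across 3 single-cell RNA sequencing libraries.

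There was 1 library for each of 3 conditions. The CON library came from unirradiated skin, the UV library from skin irradiated every other day for 12 weeks with UVB (290 to 315 nm) at 3.5 mW/cm2 mixed with UVA (315 to 400 nm) at 0.60 mW/cm2, and the Rux library from skin that had the same irradiation followed each time by an ointment with 1.5% ruxolitinib, an inhibitor of the kinases JAK1 and JAK2. The study describes the CON and UV skin as treated with vehicle, which the labels mention for the ruxolitinib group alone. All groups were labelled as wild-type female C57BL/6J mice aged 8 weeks. With 12 weeks of irradiation, 8 weeks cannot be the age at sampling of the irradiated mice. The study gives that age where it describes the purchase of the mice. Tissue was taken 24 h after the last exposure, and the number of mice behind a library was not given in the sources used here. With 1 library per condition no difference has a replicate check, so no p-value is given, and every interval below is a 95% interval that covers counting error only.

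Type I interferons signal through JAK1 and TYK2, and the transcription factor complex they assemble, which includes STAT2 and IRF9, binds the interferon-stimulated response element (ISRE). Interferon-gamma signals through JAK1 and JAK2 and acts through the gamma-activated site (GAS). In skin, interferon is known from antiviral defence, from autoimmune disease such as lupus, and from recruitment of T cells by chemokines that interferon-gamma induces.

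The 3 libraries held 13170 (CON), 12411 (UV) and 11287 (Rux) deposited cells, of which 10777, 10231 and 9299 were kept, with medians of 7549, 7669 and 9438 UMIs (unique molecular identifiers, each standing for 1 captured RNA molecule). Of the barcodes, 118 occurred in 2 libraries. The Y-linked genes Ddx3y (110, 115 and 121 CPM, the UMIs of a gene scaled to a fixed total of 1e6, in CON, UV and Rux), Uty, Eif2s3y and Kdm5d were detected in every library while Xist stayed at or below 0.119 CPM, which goes against the label of female mice in all 3 libraries alike. Clusters were named from marker lists, with the suffix "-like", and the members took no part in the clustering. Of the named classes, 11 had at least 50 cells in every library and are compared here: fibroblast-like (FB), basal and follicle keratinocyte-like (KC), other epithelial clusters with mixed keratinocyte markers (EPI), inner root sheath and hair matrix-like (HM), vascular endothelial-like (VEC), lymphatic endothelial-like (LEC), pericyte and smooth muscle-like (PCY), Schwann-like (SCH), mast cell-like (MC), myeloid-like (MYE) and lymphoid-like (LYM). In the 10 of them with a marker list of their own, every marker present in the matrix was higher inside the class than outside it in every library.

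The promoters of 6 members are printed because these genes carry the differences described below and show how the binding letters of the interferon pathway sit near their starts. Each window runs from 250 bases before to 50 bases after the start annotated by RefSeq in GRCm38.p6, on the gene's own strand, and capitals mark matches of ISRE (GAAANNGAA) or GAS (TTCNNNGAA), searched on both strands, with overlapping matches joined into 1 run of capitals. The window of Irgm1 is chr11:48871371-48871670 (minus strand), that of Ifit1 chr19:34640639-34640938 (plus strand), of Isg15 chr4:156200769-156201068 (minus strand), of Gbp5 chr3:142496684-142496983 (plus strand), of Cxcl9 chr5:92328030-92328329 (minus strand) and of Irf1 chr11:53769764-53770063 (plus strand).
Irgm1: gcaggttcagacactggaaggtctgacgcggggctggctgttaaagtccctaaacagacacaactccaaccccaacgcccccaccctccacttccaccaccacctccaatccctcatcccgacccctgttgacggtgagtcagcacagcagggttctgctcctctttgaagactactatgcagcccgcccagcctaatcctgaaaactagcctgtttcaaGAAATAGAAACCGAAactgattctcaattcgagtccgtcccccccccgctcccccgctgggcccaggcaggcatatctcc
Ifit1: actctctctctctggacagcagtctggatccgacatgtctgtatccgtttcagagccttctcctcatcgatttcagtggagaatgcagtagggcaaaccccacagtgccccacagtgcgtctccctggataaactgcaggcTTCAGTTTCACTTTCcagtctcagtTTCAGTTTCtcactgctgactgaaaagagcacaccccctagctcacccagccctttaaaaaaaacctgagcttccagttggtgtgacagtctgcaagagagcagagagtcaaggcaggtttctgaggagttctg
Isg15: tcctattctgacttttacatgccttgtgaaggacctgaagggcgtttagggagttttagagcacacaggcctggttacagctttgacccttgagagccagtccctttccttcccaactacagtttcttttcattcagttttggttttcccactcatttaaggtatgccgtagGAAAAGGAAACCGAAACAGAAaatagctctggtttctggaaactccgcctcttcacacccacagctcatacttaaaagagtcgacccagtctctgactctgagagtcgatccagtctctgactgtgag
Gbp5: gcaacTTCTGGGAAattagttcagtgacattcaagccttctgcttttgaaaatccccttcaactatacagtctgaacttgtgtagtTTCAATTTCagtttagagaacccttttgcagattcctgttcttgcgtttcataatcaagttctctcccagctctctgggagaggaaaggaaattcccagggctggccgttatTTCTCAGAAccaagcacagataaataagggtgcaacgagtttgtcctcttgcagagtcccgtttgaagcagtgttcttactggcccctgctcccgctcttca
Cxcl9: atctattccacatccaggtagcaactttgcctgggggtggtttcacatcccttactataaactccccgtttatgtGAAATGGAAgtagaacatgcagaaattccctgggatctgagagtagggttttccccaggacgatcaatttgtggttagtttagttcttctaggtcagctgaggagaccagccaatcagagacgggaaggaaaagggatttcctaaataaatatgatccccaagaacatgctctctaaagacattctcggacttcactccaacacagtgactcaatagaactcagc
Irf1: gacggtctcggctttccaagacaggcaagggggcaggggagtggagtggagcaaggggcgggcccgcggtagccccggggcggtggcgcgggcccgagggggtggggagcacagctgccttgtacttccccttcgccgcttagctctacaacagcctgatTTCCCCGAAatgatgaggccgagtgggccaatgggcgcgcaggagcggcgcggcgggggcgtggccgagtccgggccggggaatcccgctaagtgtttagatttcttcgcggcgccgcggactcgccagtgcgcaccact

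The capitals in Irgm1 are 2 overlapping ISRE matches whose letters span bases 30 to 16 before the start, and those in Isg15 are 3 overlapping ISRE matches between 78 and 58 bases before it. Ifit1 held 3 ISRE matches read on the opposite strand, Gbp5 held 1 ISRE and 2 GAS matches, Cxcl9 1 ISRE match and Irf1 1 GAS match 90 to 82 bases before the start. A window was given for 38 of the 47 members, 46 windows in all. ISRE letters occurred in 25 of these 46 windows (54.3%) against 8.56% of 32851 windows over all genes, and GAS letters in 12 (26.1%) against 8.30%. None of the 7 windows of the interferon regulatory factors held ISRE letters, and 2 of them, of Irf1 and Irf8, held GAS letters. A match describes letters and was not tested as a binding site. Several members neighbour each other: Gbp5, Gbp7, Gbp3 and Gbp2 lie on chromosome 3 between 142493978 and 142638008, the 4 Ifit genes on chromosome 19 between 34550694 and 34650009, and Irgm1, Tgtp1 and Ifi47 on chromosome 11 between 48861968 and 49096974 (GRCm38).

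The members were spread unevenly over the skin. Among the 11 classes, the highest level of a member was most often in MYE-like cells (18 of 47 members in CON, 14 in UV and 18 in Rux) or in VEC-like cells (12, 22 and 10 of 47). Schwann-like cells held the highest level of 9, 5 and 7 members, at a median depth of only 2547 to 3308 UMIs per cell. Rsad2, Oasl1 and Ifih1 were myeloid-led in every library, with intervals that did not overlap those of the next class. Oasl1, for example, stood at 1649 CPM in MYE-like cells of CON against 24.4 CPM in VEC-like cells, the next class. Iigp1 was led by VEC-like cells in every library, and Ifitm3 by LEC-like cells (3453, 2866 and 2546 CPM in CON, UV and Rux). HM-like cells had the lowest level of many members, for example 2.00 CPM of Iigp1 in CON.

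**Figure D1:**
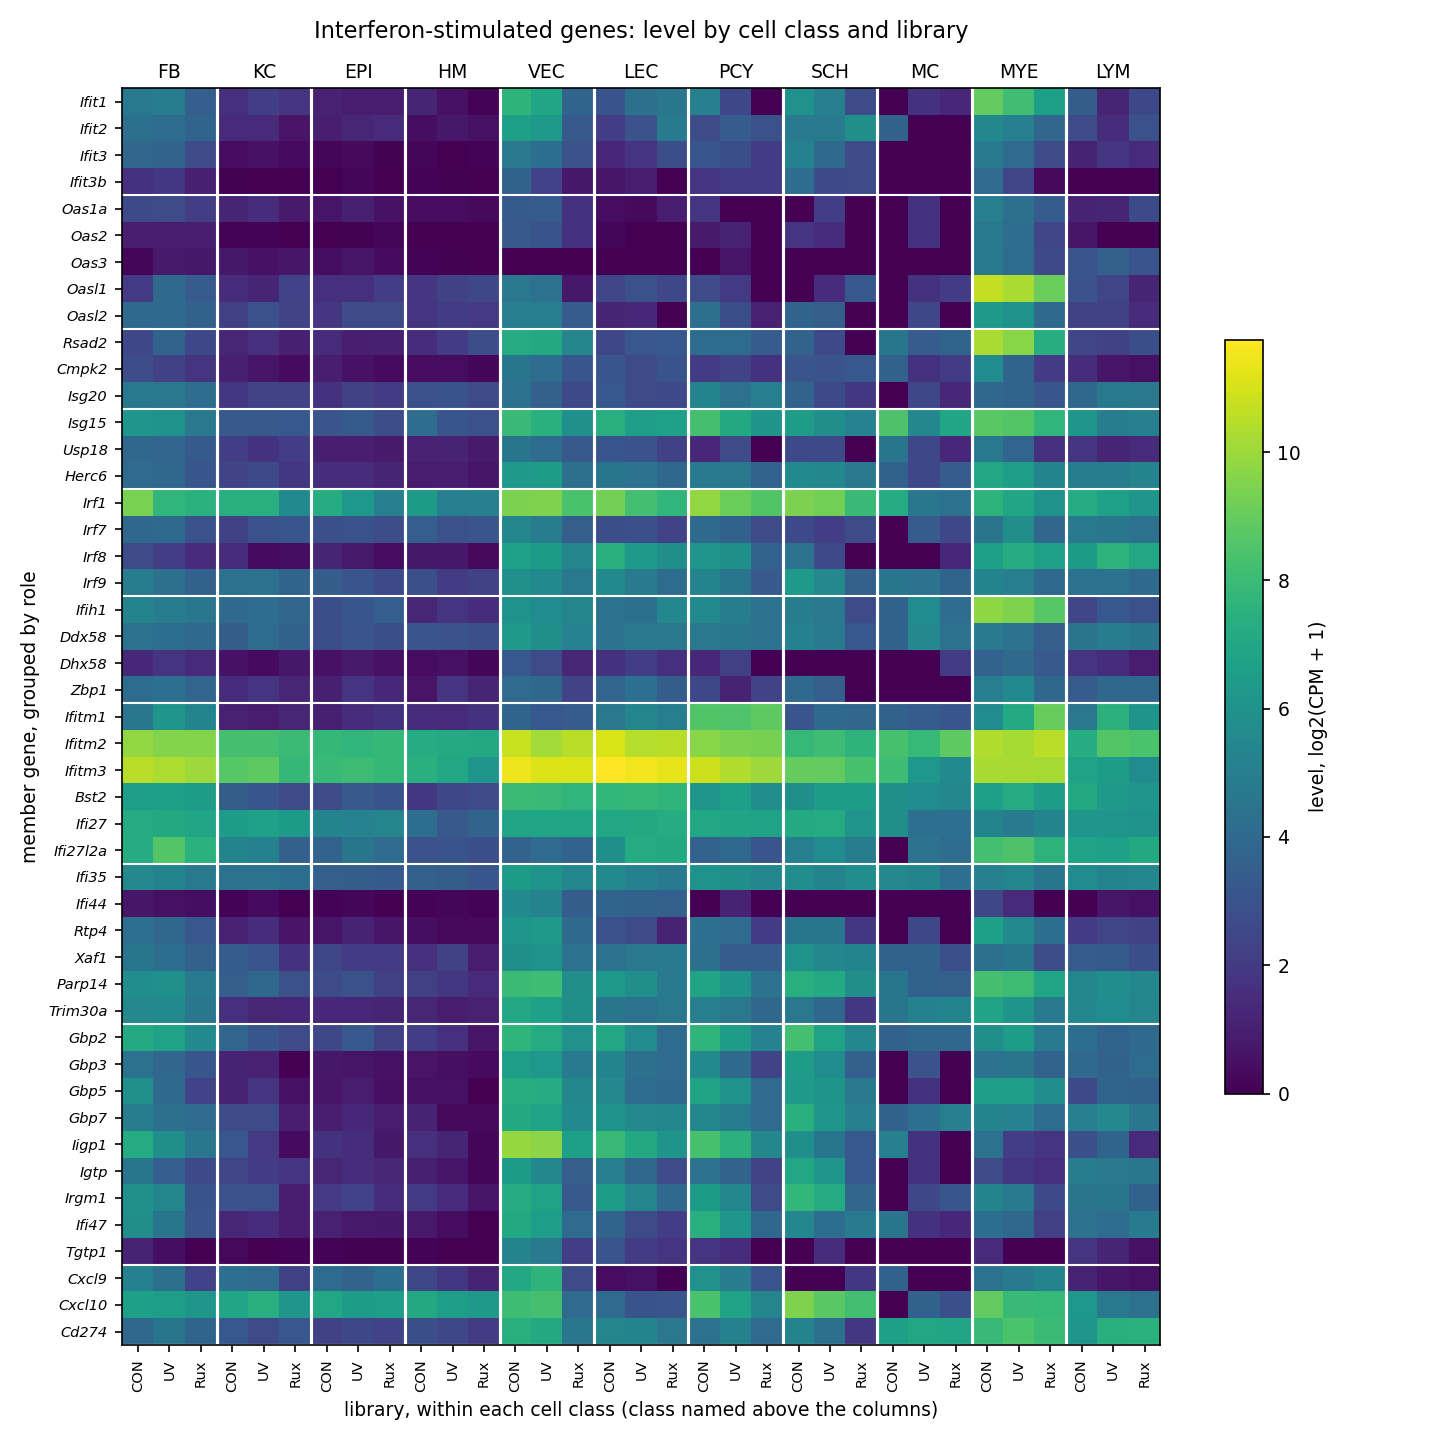
Level of the 47 members, as log2(CPM + 1), in 11 cell classes (blocks of 3 columns) and the 3 libraries (CON, UV and Rux within each block), with members grouped by role along the vertical axis. Small membrane-associated proteins are high in most classes, Oasl1, Rsad2 and Ifih1 stand out in MYE-like cells, and most members of the VEC-like block are lower in Rux than in UV.

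Ratios between libraries are given for genes with at least 100 UMIs over the 3 libraries in a class, and a gene is counted as higher or lower where the ratio passes 1.5-fold. In Rux against UV, no member was higher and 27 of 44 were lower in FB-like cells, where 5.08% of all 13884 genes were higher and 10.8% lower. In VEC-like cells 33 of 39 members were lower and none higher (8.68% and 3.18% of 7443 genes), and in MYE-like cells 28 of 36 were lower and 1 higher (11.3% and 5.45% of 6750 genes). In KC-like cells 13 of 28 were lower and 1 higher (9.40% and 5.27% of 12370 genes). The subclusters of both the MYE-like and the KC-like class took different shares of each library, as described further on. The MYE-like subcluster led by Saa3, Chil3 and Vcan had 6, 22 and 132 cells in CON, UV and Rux. The one led by Ccl8, Lyve1 and Folr2 had 86, 32 and 18. The part of these shifts in the counts was not tested. The median log2 ratio of the members was −0.77 in FB-like, −1.54 in VEC-like, −1.0 in MYE-like and −0.53 in KC-like cells, where the medians of all genes lay between −0.05 and −0.01. So in all 4 classes, each taken as a whole, the members' share of lower genes was several times the background. Members with fewer UMIs are not in these counts, 3 in FB-like (Oas3, Ifi44 and Tgtp1), 8 in VEC-like, 11 in MYE-like and 19 in KC-like cells.

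UV against CON looked different. In FB-like cells 6 of 44 members were higher and 9 lower (10.8% and 13.4% of all genes), with a median of −0.17 beside −0.12 for all genes. In KC-like cells 5 of 28 were higher and 2 lower (9.98% and 6.80% of all genes), a split that became 4 higher and 7 lower when every cell had equal weight. In VEC-like cells 1 of 39 was higher and 4 lower (6.09% and 5.45%), yet 31 of the 39 lay below 0, with a median of −0.31 beside 0.01 for all genes. In MYE-like cells 5 of 36 were higher and 9 lower (5.97% and 9.82%), or 7 and 7 with median-of-ratios scaling. Shares of all genes with equal weight per cell or with median-of-ratios scaling are not given here, so those counts lack a background. The MYE-like median was −0.24 beside −0.06. In FB-like cells the shares lay near the background, and the direction differed between members. Set side by side with the control, the Rux library had 29 of 44 members lower than CON in FB-like cells (16.4% of all genes) and 34 of 39 in VEC-like cells (12.1%). The comparisons share the UV or the CON library, so their values are not independent.

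**Figure D2:**
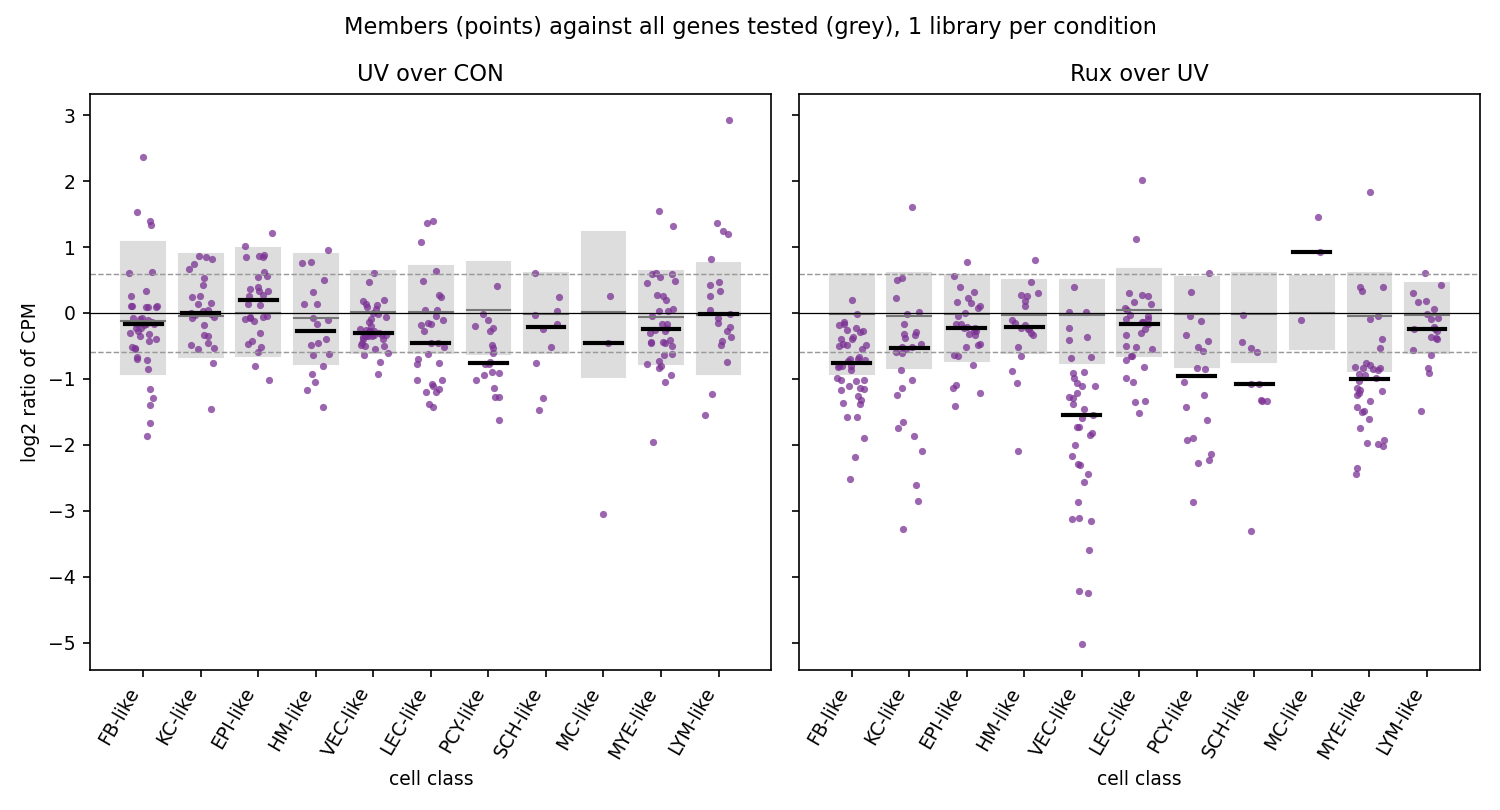
Log2 ratio of CPM for each member with at least 100 UMIs (purple points; black bar, their median) in 11 cell classes, UV over CON on the left and Rux over UV on the right; grey boxes span the 5th to 95th percentile of all genes tested, the thin line inside is their median, and dashed lines mark 1.5-fold. In Rux over UV the medians of the members lie at −1.54 in VEC-like and −0.77 in FB-like cells, below the medians of all genes.

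Among the interferon-inducible GTPases, a group known from defence against intracellular pathogens, Irgm1 was lower in Rux than in UV in all 8 classes that could be compared. In FB-like cells Irgm1 was at 59.4 CPM in CON, 41.3 in UV and 7.22 in Rux, a log2 ratio of Rux over UV of −2.51 (−2.68 to −2.35). In VEC-like cells it was at 154, 109 and 8.58 CPM, a log2 ratio of −3.60 (−4.63 to −2.84). SCH-like cells had 216, 151 and 13.9 CPM and PCY-like cells 82.8, 43.1 and 5.39 CPM of Irgm1. The Rux library was thus the lowest of the 3 in each of these classes. Iigp1, a GTPase of the same family, was at 959, 836 and 97.3 CPM in VEC-like cells (Rux over UV −3.10, −3.36 to −2.85). CON and UV lay close there in the class as a whole. In its 2 clusters, described further on, UV over CON of Iigp1 was −0.21 (cluster 18) and −0.60 (cluster 23). In FB-like cells Iigp1 was already lower in UV (150, 56.8 and 23.8 CPM; UV over CON −1.40, −1.48 to −1.32). Iigp1 was lower in Rux than in UV in 6 of 6 classes.

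The guanylate-binding proteins, large GTPases of the same defence, followed with differences between cell classes. Gbp5 was at 58.0, 15.8 and 4.23 CPM in FB-like cells, lower at each step (UV over CON −1.87, −2.02 to −1.73; Rux over UV −1.90, −2.13 to −1.67). In VEC-like cells Gbp5 stayed level from CON (159 CPM) to UV (153 CPM) and was lower in Rux (42.9 CPM; −1.82, −2.25 to −1.45). That level from CON to UV held for the VEC-like class as a whole, since UV over CON of Gbp5 was 0.20 in cluster 18 and −0.70 in cluster 23. Gbp2 was at 143, 109 and 49.1 CPM in FB-like and at 57.5, 87.1 and 28.5 CPM in MYE-like cells, so the order of CON and UV differed between these classes while Rux was lowest in both. Gbp2 was lower in Rux than in UV in 7 of 8 classes and Gbp7 in 6 of 8. Gbp7 in KC-like cells was at 5.64, 5.54 and 0.874 CPM (Rux over UV −2.61, −3.80 to −1.68). In FB-like cells Gbp7 differed less between UV and Rux (19.2 and 16 CPM) than between CON and UV (30.5 CPM in CON; UV over CON −0.67). Gbp3 was at 91.4, 75.3 and 28.6 CPM in VEC-like cells.

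Igtp and Ifi47, both of the immunity-related GTPase family, were lower in UV than in CON and lower again in Rux in FB-like, VEC-like and LEC-like cells, but not in every class. Igtp passed 1.5-fold downward in 3 of 6 classes in each of the 2 comparisons and Ifi47 in 4 of 5, while in LYM-like cells Ifi47 was higher in Rux than in UV (20.2, 17.5 and 26.8 CPM; 0.60, −0.06 to 1.32). In FB-like cells Ifi47 was at 55.3, 22.6 and 7.58 CPM (UV over CON −1.29, −1.42 to −1.17; Rux over UV −1.57, −1.75 to −1.40) and Igtp at 22.8, 10.3 and 5.20 CPM. In VEC-like cells Ifi47 was at 139, 91.2 and 16.5 CPM and Igtp at 83.8, 44.2 and 10.7 CPM. Tgtp1 reached the count minimum in VEC-like cells only, at 37.7, 28.7 and 3.58 CPM, and all of the last 500 bases of its transcripts match those of its copy Tgtp2 (33.9, 28.4 and 5.01 CPM), so reads of the pair cannot be told apart. Summed over the 9 GTPases, the level in VEC-like cells was 1974 CPM in CON, 1594 in UV and 315 in Rux, and in FB-like cells 541, 289 and 121 CPM.

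Cxcl9 and Cxcl10, chemokines that draw T cells through the receptor CXCR3, were among the members with the largest differences in VEC-like cells. Cxcl9 was at 129, 196 and 5.72 CPM there, the single member higher in UV than in CON (0.60, 0.41 to 0.79), and 8 UMIs remained in Rux (Rux over UV −5.01, −6.31 to −4.11). Cxcl10 was at 273, 312 and 16.5 CPM (−4.21, −4.91 to −3.65). The 2 VEC-like clusters described further on differed in direction in UV over CON. Cluster 18 had 1.58 for Cxcl9 and 0.77 for Cxcl10, and cluster 23 had −0.92 and −1.16. In MYE-like cells the 2 chemokines did not follow: Cxcl9 was at 20.3, 27.9 and 36.7 CPM and Cxcl10 at 485, 252 and 237 CPM, within 1.5-fold between UV and Rux. Cxcl9 was uneven within this class. The subcluster led by Saa3, Chil3 and Vcan, with 132 cells in Rux, had 0 of its 148 UMIs there. Cxcl9 was a leading gene of the subcluster led by Hist1h1b and Clec9a, with 8, 10 and 9 cells in CON, UV and Rux. The part of these subclusters in the Cxcl9 values was not tested. In FB-like cells Cxcl9 was at 35.1, 19.4 and 4.23 CPM (Rux over UV −2.19, −2.42 to −1.98), while Cxcl10 was at 97.8, 90.9 and 74.2 CPM in the class as a whole. Among 11 FB-like subclusters with enough UMIs, Cxcl10 was lower in Rux than in UV in 6 and higher in 2 (−2.48 to 0.95). In UV over CON it was lower in 1 and higher in 1 of 10 (−2.41 to 1.02). KC-like cells had 119, 172 and 72.2 CPM of Cxcl10 (Rux over UV −1.25, −1.37 to −1.13) and 18.7, 16.5 and 3.84 CPM of Cxcl9. Cd274, which encodes the checkpoint ligand PD-L1, was at 168, 141 and 23.6 CPM in VEC-like cells (−2.56, −3.14 to −2.07) and at 14.8, 22.8 and 13.0 CPM in FB-like cells, where its UV over CON ratio of 0.62 turned to −0.05 with the FB-like subclusters held at their shares in CON. In LYM-like cells Cd274 was higher in UV and Rux than in CON (68.9, 165 and 183 CPM), but these cells sat in different subclusters in each library. The subcluster led by Gzmc, Pik3r6 and Dscam, with 13, 42 and 58 cells in CON, UV and Rux, had 392 CPM of Cd274 in Rux, and the subcluster led by Kcnma1, Fermt2 and Col27a1, with 90, 5 and 1 cells, had 31.4 CPM in CON.

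The IFIT proteins bind viral RNA and block its translation. In VEC-like cells Ifit1 was at 198, 118 and 12.9 CPM (Rux over UV −3.16, −3.97 to −2.52) and Ifit2 at 97.8, 78.0 and 8.58 CPM (−3.13, −4.16 to −2.35). In FB-like cells Ifit1 was at 25.9, 31.1 and 10.4 CPM (−1.58, −1.74 to −1.43) and Ifit3 at 13.6, 12.4 and 5.53 CPM, whereas Ifit2 was within 1.5-fold (16.8 in UV and 12.8 CPM in Rux). In MYE-like cells Ifit1 was at 483, 282 and 101 CPM, lower at each step, in a class whose subclusters took different shares of each library, as described further on. Of the last 500 bases of Ifit3, 12.9% of the 60-base windows are shared with Ifit3b, which was at 2.16, 2.73 and 1.04 CPM in FB-like cells. LEC-like cells went the other way for Ifit2, at 3.39, 7.16 and 29.0 CPM (Rux over UV 2.01, 1.39 to 2.67), and for Ifit1 in UV over CON, at 7.42, 19.5 and 23.5 CPM (1.39, 0.86 to 1.94).

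Viperin, encoded by Rsad2, makes a nucleotide that stops viral polymerases, and its neighbour on chromosome 12, Cmpk2, phosphorylates nucleotides. Rsad2 in MYE-like cells was at 1236, 806 and 158 CPM (UV over CON −0.62, −0.71 to −0.52; Rux over UV −2.35, −2.49 to −2.21), and Cmpk2 at 50.4, 12.8 and 3.22 CPM (UV over CON −1.95, −2.70 to −1.30). The make-up of the MYE-like class differed between libraries, as described further on. In FB-like cells Rsad2 was higher in UV than in CON and back near CON in Rux, at 4.65, 12.3 and 4.92 CPM (1.40, 1.09 to 1.73; −1.32, −1.55 to −1.10). Within FB-like subclusters, Rsad2 had at least 100 UMIs over the 2 libraries compared in 1 subcluster per comparison. There UV over CON was 0.98 and Rux over UV −0.29, the latter within 1.5-fold. The oligoadenylate synthetase family, which senses double-stranded RNA, was led by Oasl1. Oasl1 was at 1649, 1220 and 540 CPM in MYE-like cells (Rux over UV −1.18, −1.26 to −1.09). In FB-like cells it was the member with the largest UV over CON ratio, at 2.99, 15.5 and 9.35 CPM (2.37, 2.00 to 2.77). In VEC-like cells Oasl1 had 24.4 and 20.3 CPM in CON and UV and a single UMI in Rux (0.715 CPM; Rux over UV −4.25, −10.15 to −2.30). Oasl1 in KC-like cells was instead higher in Rux, at 1.84, 1.31 and 4.11 CPM (1.61, 0.76 to 2.62). Oasl2 was at 77.7, 64.8 and 15.9 CPM in MYE-like and at 32, 32 and 9.30 CPM in VEC-like cells. Oas2 was at 0.967, 0.838 and 0.964 CPM in FB-like cells and did not move past 1.5-fold. Oas1a shares 51.2% of the 60-base windows of its last 500 bases with Oas1g, so its counts are uncertain.

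ISG15 is a ubiquitin-like protein, HERC6 its ligase in mice, and USP18 removes it and also dampens the interferon receptor. Isg15 was at 72.0, 63.7 and 24.8 CPM in FB-like cells (Rux over UV −1.36, −1.46 to −1.26), at 251, 173 and 59.4 CPM in VEC-like cells (−1.54, −1.89 to −1.21) and at 432, 385 and 215 CPM in MYE-like cells (−0.84, −0.99 to −0.70). UV was below CON by less than 1.5-fold in each of these 3 classes taken as a whole. Within the 2 VEC-like clusters described further on, UV over CON of Isg15 was −0.73 and −1.12, past 1.5-fold in both. Among 9 FB-like subclusters with enough UMIs it was lower in 5 and higher in 2 (−1.61 to 0.94). In KC-like cells Isg15 did not move, at 8.69, 8.63 and 8.56 CPM. Herc6 was at 81.1, 88.2 and 19.3 CPM in VEC-like cells (−2.17, −2.82 to −1.62) and at 130, 95.5 and 37.9 CPM in MYE-like cells. Usp18 was at 22.5, 17.6 and 8.58 CPM in VEC-like cells and within 1.5-fold between UV and Rux in FB-like cells (13.2 and 9.07 CPM).

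The 4 interferon regulatory factors (IRFs), the transcription factors of the group, did not move as a block. Irf1, which interferon-gamma induces directly, was at 667, 209 and 179 CPM in FB-like cells, so nearly all of its difference lay between CON and UV (−1.67, −1.71 to −1.63) and little between UV and Rux (−0.22, −0.27 to −0.18). In KC-like cells the opposite held: Irf1 was level in CON and UV (171 and 172 CPM) and lower in Rux (46.9 CPM; −1.87, −2.01 to −1.73). The KC-like subclusters differed in this: Rux over UV of Irf1 was −1.90 in subcluster 4, −1.57 in subcluster 5 and −0.55 in subcluster 2, the largest of Rux, which was at 45.7 CPM already in UV. VEC-like cells had 688, 716 and 332 CPM of Irf1 (Rux over UV −1.11, −1.26 to −0.97), and MYE-like cells 192, 123 and 64.5 CPM. EPI-like cells were lower at each step, at 155, 76.4 and 32.8 CPM. Irf1 is also known as an early response gene of stressed and dissociated cells. In FB-like cells 15 of 20 immediate-early and dissociation genes were lower in UV than in CON (13.4% of all genes), with a median of −1.15. In Rux against UV 3 were higher and 1 lower there (5.08% and 10.8% of all genes). In KC-like cells 7 of the 20 were higher in UV than in CON and none lower (9.98% and 6.80% of all genes). The FB-like subcluster led by Socs3, Gadd45g and Egr1, with Irf1 also among its leading genes, had 1119, 388 and 69 cells in CON, UV and Rux. The part of this subcluster and of the immediate-early and dissociation genes in the Irf1 values was not tested.

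Irf7, which amplifies type I interferon production, was at 14.1, 15.1 and 6.85 CPM in FB-like cells (Rux over UV −1.14, −1.33 to −0.94) and at 41.5, 30.2 and 10.7 CPM in VEC-like cells. In MYE-like cells Irf7 was higher in UV than in CON and lowest in Rux, at 21.9, 55.3 and 13.9 CPM (1.32, 0.79 to 1.90; −1.99, −2.49 to −1.51). Of the 99 Irf7 UMIs of MYE-like cells in UV, 52 lay in the 19 cells of the subcluster led by Spp1, Mmp13 and Arg1. That subcluster had 0 cells in CON, and 5 Irf7 UMIs in 65 cells of Rux. Its part in the Irf7 values was not tested. KC-like cells had 3.76, 6.75 and 7.86 CPM of Irf7, higher in UV than in CON (0.85, 0.38 to 1.30) and within 1.5-fold from UV to Rux. Irf8, a factor of myeloid and lymphoid development, was at 101, 152 and 106 CPM in MYE-like cells and at 84.1, 192 and 130 CPM in LYM-like cells (UV over CON 1.19, 0.89 to 1.50). Most Irf8 UMIs of the LYM-like cells lay in the subcluster led by Gzmc, with 34 UMIs in 13 cells of CON, 138 in 42 cells of UV and 171 in 58 cells of Rux, while the subcluster led by Kcnma1 had 2 UMIs in 90 cells of CON. Among the macrophage-like cells alone the UV over CON ratio of Irf8 was −0.30 and that of Zbp1 −0.13, against 0.59 for both in the whole MYE class. In VEC-like cells Irf8 was at 105, 82.8 and 39.3 CPM, in LEC-like cells at 163, 80.4 and 56.3 CPM and in FB-like cells at 5.71, 3.54 and 1.73 CPM. Irf9, a DNA-binding subunit of the complex on ISRE, was at 31.0, 19.0 and 11.6 CPM in FB-like, 58.2, 48.4 and 25.8 in VEC-like, 38.9, 31.3 and 15.4 in MYE-like and 20.1, 19.6 and 12.9 CPM in KC-like cells. Rux was the lowest library for Irf9 in these 4 classes.

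The sensors of foreign nucleic acid stayed within 1.5-fold between UV and Rux in FB-like cells (0 of 4 past it). Ifih1, which encodes the double-stranded RNA sensor MDA5, was at 861, 712 and 413 CPM in MYE-like cells (Rux over UV −0.79, −0.89 to −0.68) and within 1.5-fold between UV and Rux in FB-like (30.6 and 23.7 CPM), VEC-like (51.1 and 39.3 CPM) and KC-like cells. Among macrophage-like cells alone Ifih1 was also within 1.5-fold between UV and Rux. The MYE-like subcluster led by Saa3, Chil3 and Vcan, with 22 cells in UV and 132 in Rux, had 149 CPM of Ifih1 in Rux. The part of this subcluster in the MYE-like value was not tested. In LEC-like cells Ifih1 was higher in Rux, at 21.6, 19.5 and 42.2 CPM (1.12, 0.69 to 1.55). Ddx58, which encodes RIG-I, was within 1.5-fold in FB-like cells in both comparisons (19.9, 17.7 and 15.8 CPM), and in VEC-like cells it was at 79.2, 56.8 and 35.8 CPM (Rux over UV −0.66, −1.15 to −0.21). Zbp1, a sensor of left-handed nucleic acid that can start necroptosis, was at 31.8, 48.0 and 14.4 CPM in MYE-like cells (−1.74, −2.25 to −1.24). Dhx58, which encodes LGP2, a relative of RIG-I, was at 1.57, 2.4 and 1.73 CPM in FB-like cells (UV over CON 0.61, 0.03 to 1.23), a ratio that turned to −0.08 with the subclusters held at their shares in CON.

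Several of the small membrane-associated proteins stayed within 1.5-fold between UV and Rux in FB-like and VEC-like cells. Ifitm2, which hinders fusion of viruses with the cell membrane, was lower in Rux than in UV in 0 of 11 classes and higher in 1. In UV over CON it was lower in 2 of 11 classes and higher in 1. In VEC-like cells Ifitm2 was at 1719, 1101 and 1438 CPM. Up to 38.3% of the 60-base windows at its 3′ end are shared with other annotated genes. Ifitm3 was at 2789, 2212 and 2228 CPM in VEC-like cells and at 1418, 1273 and 1049 CPM in FB-like cells, but at 417, 457 and 226 CPM in KC-like cells (Rux over UV −1.02, −1.09 to −0.95). Bst2, which tethers budding virions, and Ifi27 were within 1.5-fold in FB-like and VEC-like cells in both comparisons. Ifi27l2a was higher in UV than in CON in FB-like cells, at 153, 385 and 180 CPM (1.34, 1.28 to 1.39; Rux over UV −1.10, −1.14 to −1.06), and in LEC-like cells, at 57.3, 147 and 142 CPM.

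Ifitm1 followed a course of its own. In FB-like cells it was at 23.6, 68.2 and 38.7 CPM (UV over CON 1.53, 1.39 to 1.67; Rux over UV −0.82, −0.90 to −0.73), but with the FB-like subclusters held at their shares in CON the Rux over UV ratio turned to 0.48. In MYE-like cells Ifitm1 was higher at each step, at 49.8, 146 and 520 CPM (1.55, 1.20 to 1.91; 1.83, 1.64 to 2.02). Of its 2097 UMIs there in Rux, 620 lay in the subcluster led by Saa3, Chil3 and Vcan, with 6, 22 and 132 cells in CON, UV and Rux. Ifitm1 was also a leading gene of the subcluster led by Cd207, Klrd1 and Timd4, with 33, 28 and 40 cells. The part of these subclusters in the MYE-like values was not tested. In LYM-like cells it was highest in UV, at 24, 185 and 66.3 CPM (2.93, 2.46 to 3.48; −1.48, −1.78 to −1.19), and in PCY-like cells it was high throughout, at 375, 371 and 462 CPM. Over all kept cells, neutrophil-like cells, of which the Rux library had 221 and the UV library 21, held 35.2% of the Ifitm1 UMIs in Rux.

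The remaining members include Parp14, an ADP-ribosyltransferase, which was lower in Rux than in UV in 9 of 10 classes. Parp14 was at 53.5, 57.9 and 28.7 CPM in FB-like cells (−1.01, −1.11 to −0.92), at 256, 272 and 54.4 CPM in VEC-like cells (−2.31, −2.68 to −1.98) and at 311, 267 and 120 CPM in MYE-like cells (−1.16, −1.34 to −0.97). CON and UV lay close together in each of these classes, and Rux stood apart. Rtp4 was at 71.2, 78.6 and 15.7 CPM in VEC-like cells (−2.29, −3.02 to −1.69) and at 100, 48.6 and 18.1 CPM in MYE-like cells. Xaf1, a pro-apoptotic factor, was at 9.83, 7.69 and 2.27 CPM in KC-like cells (−1.74, −2.46 to −1.11) and at 56.0, 63.4 and 20.7 CPM in VEC-like cells. Trim30a was at 45.1, 48.0 and 23.8 CPM in FB-like cells, Ifi44 at 47.2, 37.4 and 10.0 CPM in VEC-like cells, and Ifi35 at 45.9, 37.0 and 26.3 CPM in FB-like cells, where its Rux over UV ratio was within 1.5-fold. Isg20, an exonuclease of single-stranded RNA, was at 25.8, 24.3 and 17.2 CPM in FB-like cells, within 1.5-fold in both comparisons.

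**Figure D3:**
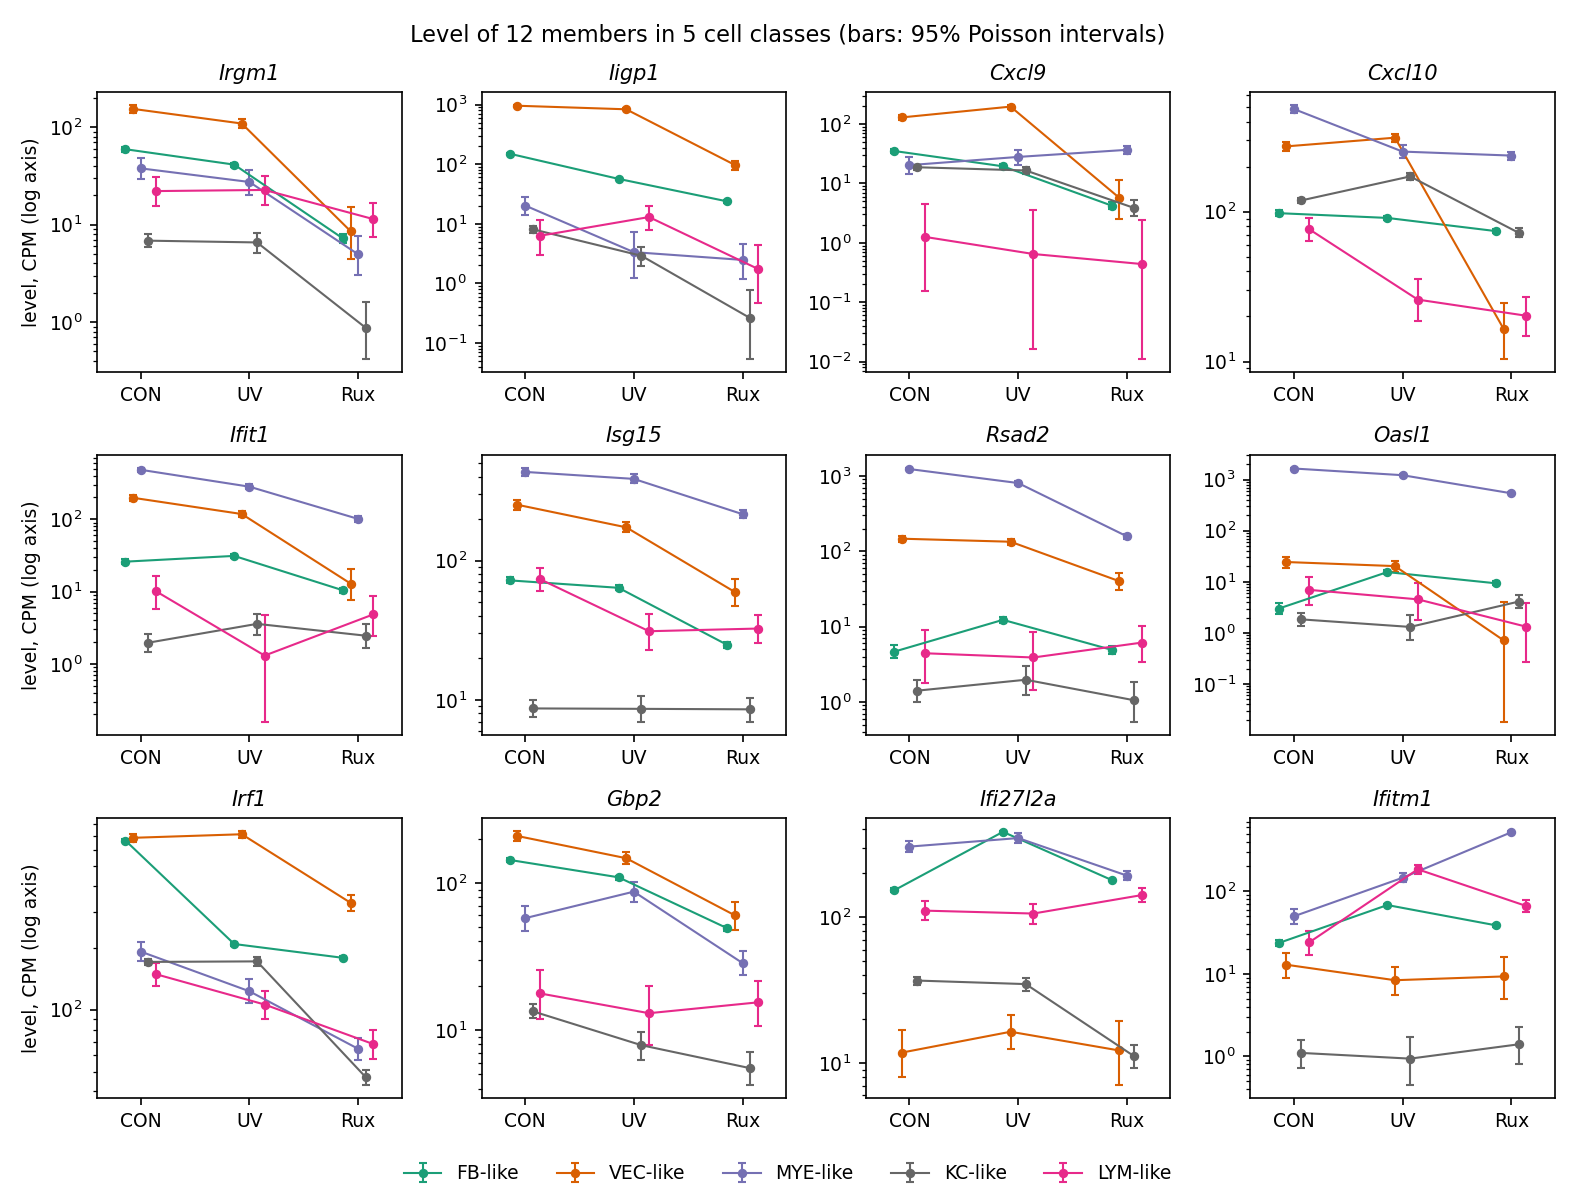
Level (CPM, log axis) of 12 members in the CON, UV and Rux libraries for 5 cell classes; points are single libraries joined by lines for each class, and bars are 95% Poisson intervals, with points at 0 left out. Irgm1, Iigp1 and Cxcl9 drop from UV to Rux in VEC-like cells, to 8.58, 97.3 and 5.72 CPM, while Irf1 in FB-like cells drops from CON to UV (667 to 209 CPM).

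In other classes fewer members could be compared. PCY-like cells had 12 of 20 members lower in UV than in CON and none higher (5.89% and 9.65% of 5535 genes), and 12 lower and 1 higher in Rux than in UV (9.47% and 3.97%). Cxcl10 there was at 333, 108 and 39.9 CPM and Ifi47 at 172, 70.5 and 14.0 CPM, lower at each step. In SCH-like cells 7 of 10 members were lower in Rux than in UV and none higher (8.62% and 5.38% of 2621 genes), and 3 were lower and 1 higher in UV than in CON (5.42% and 5.65%). LEC-like cells had 13 of 31 lower and 4 higher in UV than in CON (5.26% and 7.60% of 8627 genes), and 9 lower and 2 higher in Rux than in UV (6.48% and 7.07%). Gbp2 in LEC-like cells was at 129, 49.5 and 17.1 CPM (UV over CON −1.38, −1.60 to −1.16; Rux over UV −1.52, −2.06 to −1.04). The share of members lower in UV than in CON thus lay above the background in LEC-like and PCY-like cells, while 14 of 31 and 8 of 20 members there stayed within 1.5-fold. The 4 higher ones in LEC-like cells were Ifit1, Ifit2, Ifitm1 and Ifi27l2a.

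In the epithelium outside the KC-like cells the medians in Rux over UV were −0.23 (EPI) and −0.21 (HM). EPI-like cells had 7 of 30 members higher and 3 lower in UV than in CON (11.4% and 5.99% of 13146 genes), and 7 lower and 1 higher in Rux than in UV (7.18% and 4.73%). Gbp2 was at 4.69, 8.56 and 4.01 CPM there. HM-like cells had 3 of 20 higher and 7 lower in UV than in CON (9.24% and 9.31% of 11570 genes), and 4 lower and 1 higher in Rux than in UV (5.27% and 3.71%). In LYM-like cells, whose subclusters differed between libraries, 5 of 21 were higher and 3 lower in UV than in CON (8.39% and 11.3% of 6582 genes), and 4 were lower and 1 higher in Rux than in UV (5.52% and 2.28%). MC-like cells allowed 3 members only, of which 1 was lower and none higher in UV than in CON (16.3% and 19.6% of 2002 genes) and 2 were higher and none lower in Rux than in UV (4.30% and 3.55%). Isg15 was at 355, 42.3 and 118 CPM in them. In the clusters that no marker list named, 21 of 41 members were lower in Rux than in UV and none higher (15.6% and 6.04% of 12525 genes), and 4 were higher and 4 lower in UV than in CON (11.0% and 7.57%).

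Subgroups of the classes were compared because the make-up of a class differed between libraries. VEC-like cells came from 2 clusters. Cluster 18, led by Selp, Sele and Vwf, held 297 of 408 cells in CON and 204 of 474 in UV. Cluster 23, led by Fabp4, Cd36 and Gpihbp1, held 270 of the UV cells. For Rux over UV, 21 of 29 members were lower in cluster 18 (7.56% of all genes) and 21 of 26 in cluster 23 (12.0%), with medians of −1.47 and −1.50. In UV over CON the clusters differed: 3 of 34 members were lower in cluster 18 (4.21% of all genes) and 23 of 30 in cluster 23 (5.68%). Cxcl9 was at 48.9, 147 and 2.08 CPM in cluster 18 and at 490, 259 and 13.8 CPM in cluster 23, so the direction of UV over CON was opposite in the 2 clusters while Rux was lowest in both.

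Among 13 FB-like subclusters, 12 had at least 50 cells in both UV and Rux. A member was counted in a subcluster where it had at least 100 UMIs over the 2 libraries compared. By this rule Isg15 was lower by more than 1.5-fold in Rux than in UV in 9 of 9 subclusters, Irgm1 in 7 of 7, Ifit1 in 7 of 8, Gbp2 in 9 of 11 and Irf1 in 3 of 12. Ifitm1 was lower in none of 9 and higher in 2. The median of the members ran from −1.08 in subcluster 4, led by Thbs1, to 0.00 in subcluster 8, led by Igfbp2, where only 10 members reached the count minimum and UV had 61 cells. Subcluster 1 also differed little, with 6 of 34 members lower and a median of −0.09. With 11 of the 13 subclusters held at their shares in CON, the median over them was −0.48, with 19 members lower and none higher. Left out were those with fewer than 50 cells in a library. They were subcluster 10, led by Saa3, Hp and Lcn2, with 0, 23 and 440 cells in CON, UV and Rux, and subcluster 12, with 42, 102 and 70. The same 11 subclusters gave the ratios of single members at their shares in CON. The share of all genes lower at these weights is not given here, so the 19 have no background beside them. In UV over CON, Irf1 was lower in 7 of 11 subclusters, Iigp1 in 7 of 9 and Ifi47 in 7 of 8, and Ifi27l2a was higher in 7 of 8. Subcluster 2, led by Socs3, Gadd45g and Egr1 and with Irf1 and Socs1 also among its leading genes, had 1119 cells in CON, 388 in UV and 69 in Rux. Without it, 4 of 43 members were higher and 8 lower in UV over CON (9.90% and 14.6% of all genes), and 27 of 43 were lower in Rux over UV (11.0% of all genes).

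The KC-like cells of the libraries also lay in different subclusters. Subcluster 0 had 410, 48 and 13 cells in CON, UV and Rux, subcluster 3 had 247, 1 and 15, subcluster 2 had 26, 85 and 175, and subcluster 7 had 8, 33 and 104. Few members reached the count minimum within 1 subcluster. In Rux over UV, 0 of 5 were lower in subcluster 2 (5.33% of all genes, median −0.25), 4 of 5 in subcluster 4 (8.12%, −0.97) and 3 of 8 in subcluster 5 (4.73%, −0.55), and none was higher. The part of these shifts in the KC-like values was not tested.

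**Figure D4:**
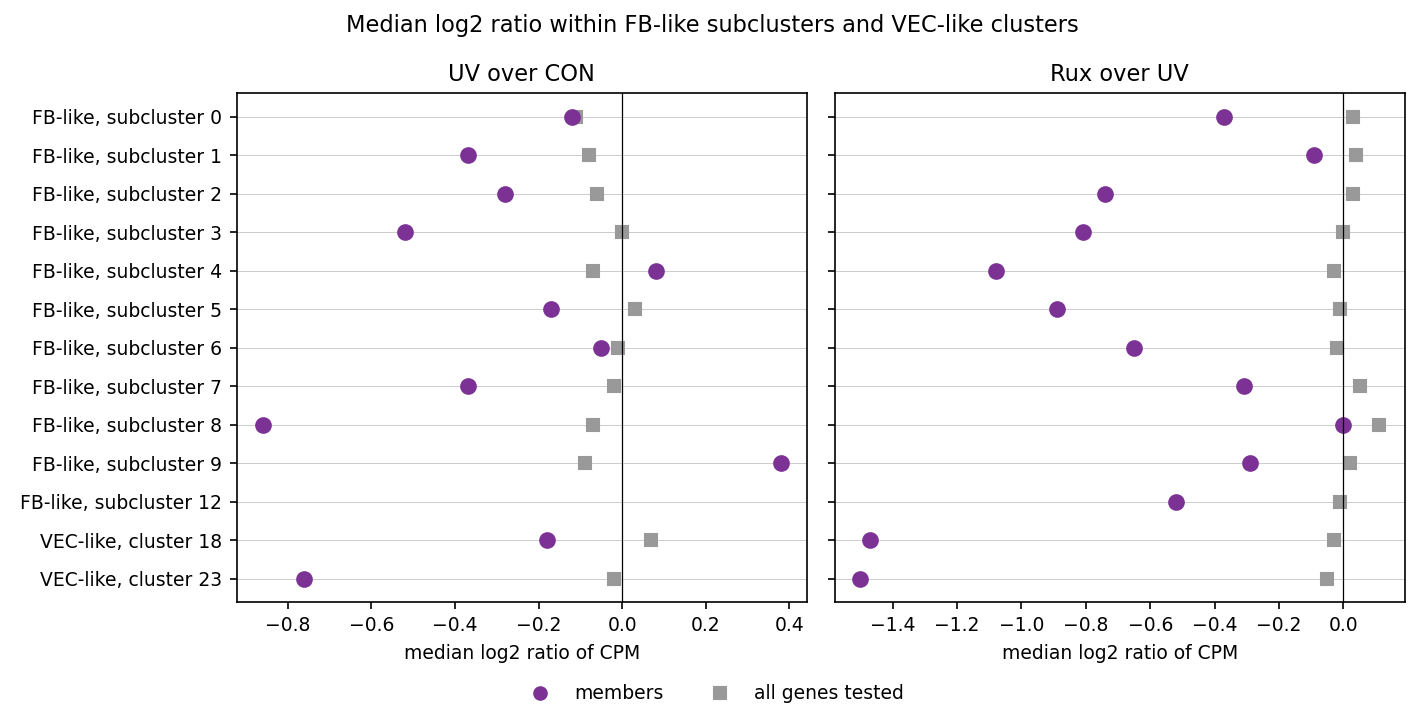
Median log2 ratio of CPM over the members (purple circles) and over all genes tested (grey squares) within FB-like subclusters and VEC-like clusters in which at least 5 members could be compared, UV over CON on the left and Rux over UV on the right. In Rux over UV the members lie left of all genes in each row shown, from 0.00 in FB-like subcluster 8 to −1.50 in VEC-like cluster 23.

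Among MYE-like cells, macrophage-like (MAC) subclusters numbered 161, 117 and 165 cells, with Oasl1, Rsad2 and Ifih1 above the whole class in every library. Oasl1 was at 3188, 2146 and 1137 CPM in them, Rsad2 at 2549, 1083 and 400.0 CPM and Ifih1 at 1595, 1389 and 1057 CPM. In MAC-like cells 11 of 24 members were lower in UV than in CON and 1 higher, where 11.0% of 3883 genes were lower and 8.94% higher. In Rux against UV 13 of 24 were lower and none higher (9.92% and 5.85% of all genes). The subcluster led by Ccl8, Lyve1 and Folr2 had 86 cells in CON, 32 in UV and 18 in Rux, and in CON it was at 4285 CPM of Rsad2, against 313 CPM in the subcluster led by Mucl1, Lyz1 and Retnla. The latter was the one MYE-like subcluster with at least 50 cells in 2 libraries, CON and Rux, and there 2 of 12 members were lower in Rux than in CON (13.1% of all genes) and none higher, with a median of −0.30. Rsad2 was at 313 and 371 CPM in it and Ifit1 at 286 and 326 CPM. Cxcl10 in MAC-like cells was at 731, 313 and 337 CPM. The rest of the MYE class was uneven between libraries, since the subcluster led by Saa3, Chil3 and Vcan had 6 cells in CON, 22 in UV and 132 in Rux. The one led by Spp1, Mmp13 and Arg1, outside the MAC-like cells, had 0, 19 and 65 cells. Its 19 cells in UV held 605 of the 1444 Rsad2 UMIs of all MYE-like cells of UV. The part of this subcluster in the MYE-like values was not tested.

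The members were also read as 2 lists, by the interferon known as their main inducer: a type I core of 24 genes (IFIT and OAS families, Isg15, Rsad2, Irf7, the sensors and others, 22 of them in the matrix) and an interferon-gamma group of 12 genes (the 9 GTPases, Irf1, Cxcl9 and Cd274). The shares of all genes given above for each class are the background of these counts too. In FB-like cells the 2 lists differed in UV over CON, with 3 of 20 core genes higher and none lower (median −0.14) and 1 of 11 gamma-group genes higher and 7 lower (median −0.85). Both were lower there in Rux over UV, 12 of 20 core genes (−0.71) and 9 of 11 gamma-group genes (−1.15). VEC-like cells had 15 of 16 core genes (−1.66) and 12 of 12 gamma-group genes (−2.22) lower in Rux than in UV, MYE-like cells 16 of 16 (−1.45) and 6 of 8 (−0.90), and KC-like cells 3 of 10 (−0.42) and 5 of 8 (−1.98). In LEC-like cells the core had 2 of 9 genes higher and 1 lower in Rux over UV (0.13), while 6 of 10 gamma-group genes were lower (−0.65).

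Shares of cells were compared after thinning to 2000 UMIs per cell, because deeper cells are more likely to show a UMI of a gene. Cells with fewer than 2000 UMIs were left out, so each thinned share is of the remaining cells of its class. Of the remaining FB-like cells, 39.6% (37.9% to 41.3%) in CON, 37.6% (36.2% to 39.0%) in UV and 25.2% (23.9% to 26.5%) in Rux then had at least 1 UMI of the type I core. VEC-like cells had 67.3%, 70.2% (65.6% to 74.5%) and 40.5% (32.8% to 48.6%), and MYE-like cells 74.6%, 74.1% and 60.7% (55.9% to 65.4%). The lowest class was HM-like, with 9.28%, 8.97% and 6.78%, and KC-like cells, at 13.0%, 14.6% and 10.6%, lay close to that level. Free RNA adds UMIs to cells that do not express a gene, and its part in these low shares was not measured. Without thinning, and with all FB-like cells counted, the shares were 68.1%, 69.0% and 64.9% at median depths of 6040, 7282 and 9799 UMIs, a smaller gap between UV and Rux. For the interferon-gamma group the thinned shares were 76.4%, 51.7% and 38.6% in FB-like, 88.1%, 91.1% and 62.0% in VEC-like and 30%, 29.2% and 11.1% in KC-like cells, so FB-like cells were lower at each step and the other 2 classes in Rux only. LYM-like cells went from 38.1% in CON to 53.9% in UV and 47.7% in Rux. Irf1 had the most UMIs of any gene of this group over all kept cells, 40974 in CON, 21261 in UV and 14459 in Rux. Its level, given above, was also lower at each step in FB-like cells and lower only in Rux in VEC-like and KC-like cells. The part of Irf1 in these shares was not tested. The core UMIs were not spread evenly, since the top 5% of FB-like cells held 33.1%, 35.3% and 34.8% of them.

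Over all kept cells the class make-up entered the values. Of the 47 members, 35 were above 0 and 12 below in UV over CON (median 0.19, beside −0.04 for all genes), against 14 above and 33 below when every class kept its share of UMIs in CON (median −0.18, beside −0.01). In Rux over UV 43 of 47 were below 0 as observed (median −0.62, beside −0.10 for all genes) and 46 of 47 at the shares in CON (median −0.75, beside −0.04). The direction of UV over CON for the whole skin sample thus turned with the class shares and that of Rux over UV did not. FB-like cells numbered 3272 in CON and 4893 in UV, KC-like cells 1278 and 480, and MYE-like cells numbered 269, 229 and 448.

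Among the other genes of the pathway, the receptors stayed close. None of the receptor genes that could be compared was lower by more than 1.5-fold in Rux than in UV in FB-like, VEC-like or MYE-like cells. Ifngr1, a chain of the interferon-gamma receptor, was at 155, 112 and 164 CPM in FB-like cells and at 58.0, 26.5 and 42.5 CPM in KC-like cells (UV over CON −1.13, −1.32 to −0.94). Of 10 JAK-STAT genes, 2 of 10 were lower in Rux than in UV in FB-like cells (10.8% of all genes), 5 of 8 tested in VEC-like (8.68%), 3 of 9 in MYE-like (11.3%) and 2 of 10 in KC-like cells (9.40%). Stat2, a subunit of the complex that binds ISRE, was at 58.4, 48.3 and 20.7 CPM in FB-like cells (Rux over UV −1.22, −1.33 to −1.11), at 78.8, 99.3 and 31.5 CPM in VEC-like cells and at 16.1, 19.1 and 6.38 CPM in KC-like cells. Socs1, a feedback inhibitor of the kinases, was at 99.7, 50.6 and 18.4 CPM in FB-like cells. Socs1 was among the leading genes of FB-like subcluster 2, which had 1119, 388 and 69 cells in CON, UV and Rux. The part of that subcluster in the Socs1 values was not tested. Jak1 and Jak2, the kinases that ruxolitinib blocks, were at 617 and 133 CPM in UV and at 463 and 133 CPM in Rux in FB-like cells.

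Of the interferons themselves, Ifng was read in LYM-like and Ifnb1 in MYE-like cells. Ifng was at 65.8, 155 and 189 CPM in LYM-like cells, higher in UV than in CON (1.23, 0.90 to 1.58) and not lower in Rux. The LYM-like subclusters took different shares of each library. The one led by Kcnma1 had 90, 5 and 1 cells in CON, UV and Rux, and the one led by Gzmc 13, 42 and 58. The part of these shifts in the Ifng values was not tested. Ifnb1 was at 107, 77.6 and 32 CPM in MYE-like cells (Rux over UV −1.28, −1.64 to −0.92). In MAC-like cells Ifnb1 was at 214, 107 and 95.3 CPM, so UV and Rux lay closer there.

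Values that move with these results are given here for the whole lists. Of 11 immune cell genes, 1 (Cd74, at 96.7, 41.3 and 17.9 CPM) reached the count minimum in VEC-like cells, and the sum of the 11 was 136, 58.6 and 31.5 CPM. In FB-like cells the same sum was 31.5, 18.5 and 23.6 CPM, and in SCH-like cells 321, 492 and 69.6 CPM. The 20 immediate-early and dissociation genes had a median of −0.05 in Rux over UV in VEC-like cells, with 1 higher and 2 lower (3.18% and 8.68% of all genes). Their part in the members' values was not tested.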

How the data were processed

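Count tables of unique molecular identifiers (UMIs) per gene and cell, deposited by the authors for 3 libraries (CON, UV and Rux, 1 per condition), were the source of every value. Per the labels, reads came from 10x 3′ libraries and were mapped to mm10. The submitters' processing notes name Cell Ranger 6.1.2 and Seurat 5.3.0, and the file headers name Cell Ranger 7.0.0. The counts were used as deposited, without normalization.

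Cells were kept from 200 genes upward if mitochondrial UMIs made up no more than 10%, and the cells with the highest Scrublet scores (Scanpy 1.11.5) were removed at a rate of 0.8% per 1000 cells, which leaves no independent check of that rate. Clustering was done in Seurat 5.3.0 (R 4.3.3) on 2000 variable genes without the members, with 30 principal components, 20 neighbours and resolution 1.5. The class markers decided the names, and no class was named by the authors' files. Subclusters used 20 components and resolution 0.5 (FB, KC) or 1.0 (MYE, LYM).

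UMIs were summed per class and library and divided by the class total, giving counts on a scale of 1e6 (CPM) with exact Poisson intervals. A ratio is log2 of the CPM after 0.5 was added to each count, with an exact conditional binomial interval. The ratio step was tested on simulated data, and further steps used Python 3.11.15 with numpy 2.4.6, scipy 1.17.1, pandas 2.3.3 and matplotlib 3.10.9. With 1 library per condition no test between conditions was possible.

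Values per library are given for members with at least 100 UMIs over the 3 libraries that passed 1.5-fold in a class, largest first, and for the interferon regulatory factors, and members are otherwise given as counts or as contrasts to these. The members, lists and tests were chosen with earlier results of these data known. Alternatives changed the cell filter, doublet removal, resolution, genes for clustering, scaling, weight of cells, totals, count minimum, fold and class make-up.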

Additional observations from a re-analysis of the deposited data

Results flagged for a closer look

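Several members differed in direction between cell classes in the same pair of libraries, each past 1.5-fold with a counting interval away from 0. With 1 library per condition none of these differences between classes was tested. In UV over CON the log2 ratio of Ifit1 was 1.39 in LEC-like and −0.77 in MYE-like cells, and that of Rsad2 was 1.40 in FB-like and −0.81 in EPI-like cells. That of Cxcl9 was 0.60 among VEC-like cells and −1.01 among PCY-like cells. The VEC-like cells were themselves split for Cxcl9, with 1.58 in cluster 18 and −0.92 in cluster 23. Among the transcription factors, Irf7 was at 1.32 in MYE-like and −0.63 in HM-like cells. Of the 99 Irf7 UMIs of MYE-like cells in UV, 52 lay in a subcluster with 0 cells in CON and 19 in UV. Irf8 was at 1.19 in LYM-like and −1.02 in LEC-like cells. The LYM-like subcluster with most Irf8 UMIs had 13 cells in CON and 42 in UV. Gbp2 was at 0.87 in EPI-like and −1.47 in SCH-like cells, Isg20 at 0.85 in EPI-like and −0.91 in PCY-like cells, Ifitm2 at 1.36 in LYM-like and −0.64 in VEC-like cells, and Bst2 at 0.77 in HM-like and −0.75 in LYM-like cells.

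In Rux over UV, where most members were lower, single members were higher in a class. Ifit2 was at 2.01 in LEC-like and −3.13 in VEC-like cells, so the lymphatic and vascular endothelial-like cells went opposite ways. Oasl1 was at 1.61 in KC-like cells, from 14 UMIs in UV and 47 in Rux, and at −4.25 in VEC-like cells. Ifih1 was at 1.12 in LEC-like and −0.79 in MYE-like cells, but within 1.5-fold among macrophage-like cells alone. Isg15 was at 1.46 in MC-like and −1.54 in VEC-like cells, and Rsad2 at 0.81 in HM-like and −2.35 in MYE-like cells. The log2 ratio of Ifitm1 was 1.83 among MYE-like cells and −1.48 among LYM-like cells. Subclusters of both classes took different shares of each library.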

How the results depend on the processing

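Of 164 recomputed summary values, 131 stayed close (within 1.5 times for a count, 0.1 for a median and the interval for a share) and 33 moved. A change of direction was recorded only for medians past 1.5-fold in the main setting, and there were 0. Counts, shares and smaller medians could not be recorded as changed. The KC-like median in UV over CON ran from −0.1 to 0.21 over the settings. Of 1846 recomputed ratios of named members, 1651 stayed within their counting interval, 188 moved and 7 changed direction. That last label was open only to ratios past 1.5-fold in the main setting. The settings differed in how many ratios stayed. All 228 ratios stayed when the members were kept among the variable genes or when haemoglobin, keratin and mitochondrial genes left the totals. With 11 of the 13 FB-like subclusters weighted as in CON and the others left out, 15 of 60 stayed, 42 moved and 3 changed direction. With MAC-like cells alone, 32 of 62 stayed, 27 moved and 3 changed direction. No paired analysis was possible because each condition has 1 library, so the groups share fewer than 2 replicate numbers, and no replicate could be left out. At 2-fold the number of members past the threshold in UV over CON was 9 in FB-like, 1 in KC-like, 0 in VEC-like and 4 in MYE-like cells, and in Rux over UV 16 in FB-like and 19 in MYE-like cells, fewer by construction. Without doublet removal UV over CON in KC-like cells had 11 members past 1.5-fold (9 higher and 2 lower, median 0.21, with Gbp2 at 0.70), and the VEC-like median in Rux over UV was −1.42. With equal weight per cell, KC-like cells had 11 (4 higher and 7 lower) in UV over CON, and the VEC-like medians were −0.14 in UV over CON and −1.40 in Rux over UV. At resolution 0.8 the medians in Rux over UV were −0.80 in KC-like and −1.38 in VEC-like cells, and UV over CON had 10 members past 1.5-fold in VEC-like cells. Median-of-ratios scaling gave MYE-like medians of −0.12 (UV over CON) and −0.88 (Rux over UV), where the median of all genes moved from −0.06 to 0.06 and from −0.05 to 0.07. With FB-like subclusters weighted as in CON the Rux over UV median was −0.48, Ifitm1 turned to 0.48, and Dhx58 and Cd274 in UV over CON turned to −0.08 and −0.05. Chosen after seeing the data, MAC-like cells alone gave medians of −0.53 and −0.67, with 13 members past 1.5-fold in Rux over UV, and Ifit2 (Rux over UV) turned to 0.28, Irf8 and Zbp1 (UV over CON) to −0.30 and −0.13. Also chosen after seeing the data were the weighting of the VEC-like clusters and the removal of the FB-like subcluster led by immediate-early genes, which moved no count past 1.5 times. The cause of these shifts was not tested. Without thinning, and with all cells of a class counted, the shares of cells with a type I core UMI in CON, UV and Rux were 68.1%, 69.0% and 64.9% in FB-like, 55.7%, 63.5% and 53.5% in KC-like, 84.8%, 89.0% and 71.4% in VEC-like and 83.3%, 87.8% and 81.7% in MYE-like cells. Over the settings run, the members lower in Rux over UV numbered 16 to 28 in FB-like, 28 to 37 in VEC-like, 13 to 34 in MYE-like and 10 to 20 in KC-like cells. The shares of all genes at these settings are not given here, so the counts in this section have no background beside them. Depth limits the small classes most: VEC-like cells of Rux held 182 cells, and members there rest on as few as 1 UMI.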

Other observations

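Interferon-stimulated genes outside the 49 were read as a second list of 73, of which 68 were in the matrix. In Rux over UV, 21 of 53 that could be compared were lower and 1 higher in FB-like cells (median −0.44), 37 of 44 lower and none higher in VEC-like cells (−1.0), 27 of 38 lower and none higher in MYE-like cells (−0.87), and 10 of 36 lower and 2 higher in KC-like cells (−0.34), where 10.8%, 8.68%, 11.3% and 9.40% of all genes were lower in these 4 classes. In UV over CON, 3 were higher and 15 lower in FB-like cells (10.8% and 13.4% of all genes), and in KC-like cells 10 were higher and none lower (9.98% and 6.80%; median 0.26). Ifi203, a nuclear DNA-binding protein of the HIN-200 family, was at 402, 404 and 166 CPM in CON, UV and Rux in FB-like cells (Rux over UV −1.28, −1.32 to −1.24). Nlrc5, the transactivator of MHC class I genes, was at 29.3, 17.4 and 5.73 CPM there. Irgm2, a GTPase beside Irgm1 in function, was at 69.3, 54.1 and 7.87 CPM in VEC-like cells. Ly6e, which hinders viral entry, stayed level in VEC-like cells, at 989, 882 and 952 CPM. Slfn2, which guards T cell quiescence, was higher in Rux in KC-like cells, at 1.68, 1.13 and 6.90 CPM (2.57, 1.73 to 3.63), and in MYE-like cells at 965, 1016 and 1469 CPM.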
